A study of Bos taurus with 3 samples.

Results

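Cholesterol is built in the cell from acetyl-CoA. The mevalonate steps make isoprenoid units, these are joined into squalene, and squalene is oxidized, closed into a ring and reduced to the finished sterol. The enzymes share a feedback control: when sterols are scarce, the SREBP transcription factors are carried to the Golgi by SCAP, cleaved and sent to the nucleus, and INSIG proteins hold SCAP back in the endoplasmic reticulum when sterols are plentiful. In stratified epithelia such as the rumen lining, cholesterol is a known component of membranes and of the lipid that differentiating keratinocytes release.

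The genes of this route followed here, taken by their symbols, were HMGCS1 (ENSBTAG00000011839), the cytosolic HMG-CoA synthase, IDI1 (ENSBTAG00000004075), the isopentenyl diphosphate isomerase, FDFT1 (ENSBTAG00000012432), squalene synthase, SQLE (ENSBTAG00000005498), squalene epoxidase, LSS (ENSBTAG00000018936), lanosterol synthase, DHCR7 (ENSBTAG00000016465), a reductase of the last part of the route, and INSIG1 (ENSBTAG00000001592), which retains SCAP. They are 7 of the 27270 genes in the count tables, and each symbol matched 1 row. Expression was measured in single cells of the rumen of 3 newborn Holstein calves, taken 1 day after birth, with 1 droplet library per calf; the rumen had been freed of its outer muscle layers before dissociation. All 3 libraries belong to the same group, so the comparisons are between kinds of cell within the calves, and the adult samples of the study were not analysed here.

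The libraries held 82263092, 89803289 and 106145091 unique molecular identifiers (UMIs, each standing for 1 captured RNA molecule). After the filters, 4695, 9746 and 9601 cells of calves 1, 2 and 3 remained, 24042 in all, with medians of 10166, 6463 and 7385 UMIs. Cells were classed by clusters made without the 7 genes and without a wider list of sterol genes. The epithelial class held 4578, 8769 and 7763 cells, the endothelial class 78, 559 and 691, the class of fibroblasts with myofibroblasts 22, 343 and 421, and the immune class 17, 75 and 726. The labels name the tissue only; keratin and adhesion markers defined the epithelial class, in whose 2 clusters 6 and 8 of 9 listed epithelial markers were above 2 times the mean of the other clusters. Between pairs of libraries, 21, 29 and 37 cell barcodes were shared.

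A level below is the sum of a gene's UMIs over a group of cells in 1 calf, per 10000 UMIs of all genes in those cells. These UMIs count 3′ ends and are not divided by transcript length, so levels are compared between cells and not between genes. A share is the percentage of cells with at least 1 UMI of a gene after each cell had been thinned at random to 2000 UMIs, with shallower cells left out. A gene passed the test when its adjusted p was below 0.05 in edgeR's quasi-likelihood test on the counts summed per calf and group, with the calf as a block and Benjamini-Hochberg adjustment over all genes tested.

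In the epithelial class the summed level of the 7 genes was 2.26, 1.31 and 1.81 UMIs per 10000 in calves 1, 2 and 3, which is 1.79 ± 0.472 (SD, n = 3 calves). Calf 2 was lowest and calf 1 highest. These values rested on 11379, 8762 and 12372 UMIs, and their 95% Poisson intervals, which cover counting error only, were 2.21 to 2.30, 1.29 to 1.34 and 1.78 to 1.84, so the calves differed by more than counting error. After thinning, 31.3%, 17.3% and 26.0% of epithelial cells had a UMI of at least 1 of the genes, and 72.3%, 44.5% and 62.9% before thinning. No class of these cells is known to lack the route, so the level that free RNA alone would give could not be read from these genes.

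Gene by gene, the epithelial level of HMGCS1 was 0.463 ± 0.0876 (SD, n = 3 calves) UMIs per 10000, and 7.38% ± 2.09 of thinned epithelial cells had an HMGCS1 UMI. The IDI1 level was 0.466 ± 0.162 with a share of 7.10% ± 2.73. FDFT1 stood at 0.302 ± 0.0628 with a share of 5.48% ± 1.32, and SQLE at 0.327 ± 0.116 with a share of 5.83% ± 2.44. Every one of the 7 genes had its highest epithelial level in calf 1. LSS, at 0.0320 ± 0.00879, and INSIG1, at 0.0661 ± 0.00580, were sparse, with UMIs in 0.564% ± 0.253 and 1.17% ± 0.236 of the thinned cells. The DHCR7 level was 0.138 ± 0.0433 and its share 2.65% ± 0.853. Calf 2 had the lowest epithelial level of each gene but INSIG1, whose levels in the 3 calves were close together at 0.0712, 0.0674 and 0.0598.

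Within the epithelium, cells with KRTDAP, a gene of differentiating spinous keratinocytes, carried more of these transcripts. KRTDAP-high cells, which had 2 or more KRTDAP UMIs after thinning, numbered 173, 256 and 17 in calves 1, 2 and 3, and KRTDAP-negative cells, with none, numbered 4102, 8011 and 7579. The summed level of the 7 genes was 4.11, 4.68 and 8.58 UMIs per 10000 in the KRTDAP-high cells against 2.13, 1.11 and 1.79 in the KRTDAP-negative cells. The ratio was thus 1.93, 4.23 and 4.81 in calves 1, 2 and 3, and the groups did not overlap. A UMI of at least 1 of the genes was found in 48.4% ± 6.35 of the thinned KRTDAP-high cells (86.8% before thinning) and in 24.1% ± 7.23 of the KRTDAP-negative cells (59.8% before thinning). Cells with 1 KRTDAP UMI, left out of the comparison, had summed levels of 2.75, 1.84 and 3.92, in each calf between the levels of both groups.

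All 7 genes rose in KRTDAP-high cells, against a background of 14.6% of the 11803 genes tested that were called higher. Their median log2 difference was 1.88, where the median over all tested genes was -0.14. Each gene was higher in 3 of 3 calves. The levels of the groups did not overlap for any of them, where 11.5% of the tested genes were higher without overlap.

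The INSIG1 level was 0.216, 0.323 and 0.636 in KRTDAP-high cells of calves 1, 2 and 3 and 0.0640, 0.0532 and 0.0582 in KRTDAP-negative cells. This is a log2 difference of 2.59 ± 0.29 (SE; edgeR, adjusted p = 5.71e-18). For IDI1, which makes the allylic unit that the next steps join, the levels were 1.82, 1.33 and 2.81 against 0.535, 0.229 and 0.476, a log2 difference of 2.397 ± 0.205 (edgeR, adjusted p = 1.07e-29). SQLE, an oxygen-dependent and rate-controlling step, had levels of 0.700, 0.991 and 1.54 against 0.403, 0.151 and 0.350, and rose by 2.00 ± 0.21 on the log2 scale (edgeR, adjusted p = 1.85e-19). In each of these genes the KRTDAP-high cells of calf 3 had the highest level, and these are the fewest cells.

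LSS, which closes the ring, rose by 1.88 ± 0.38 on the log2 scale (edgeR, adjusted p = 8.34e-06), on 20, 27 and 3 UMIs in the KRTDAP-high cells. HMGCS1 had levels of 0.617, 1.13 and 1.80 against 0.537, 0.323 and 0.469, a log2 difference of 1.40 ± 0.21 (edgeR, adjusted p = 3.13e-10). In calf 1 the HMGCS1 levels of both groups lay close together, and in calves 2 and 3 they were far apart, with ratios of 1.15, 3.51 and 3.84. The fit of this comparison used a spread shared by genes of like abundance, so its SE and p do not show how far the calves differed in a single gene. In limma-voom, chosen after seeing the data and less dependent on the shared spread, all 7 genes passed, from IDI1 (adjusted p = 8.84e-07) to FDFT1 (adjusted p = 0.00611), and HMGCS1 differed by 1.33 ± 0.27 (adjusted p = 0.00324). FDFT1 levels were 0.444, 0.518 and 1.22 in KRTDAP-high and 0.367, 0.241 and 0.274 in KRTDAP-negative cells. DHCR7 levels were 0.232, 0.299 and 0.424 against 0.185, 0.0911 and 0.124, again closest in calf 1. DHCR7 differed by 1.30 ± 0.26 and FDFT1 by 1.16 ± 0.21 on the log2 scale (edgeR, adjusted p = 9.06e-06 and 7.89e-07). Without calf 2, LSS and DHCR7 no longer passed (edgeR, adjusted p = 0.123 and 0.165) and 5 of the genes did; without calf 3, with its 17 KRTDAP-high cells, all 7 passed.

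**Figure D1:**
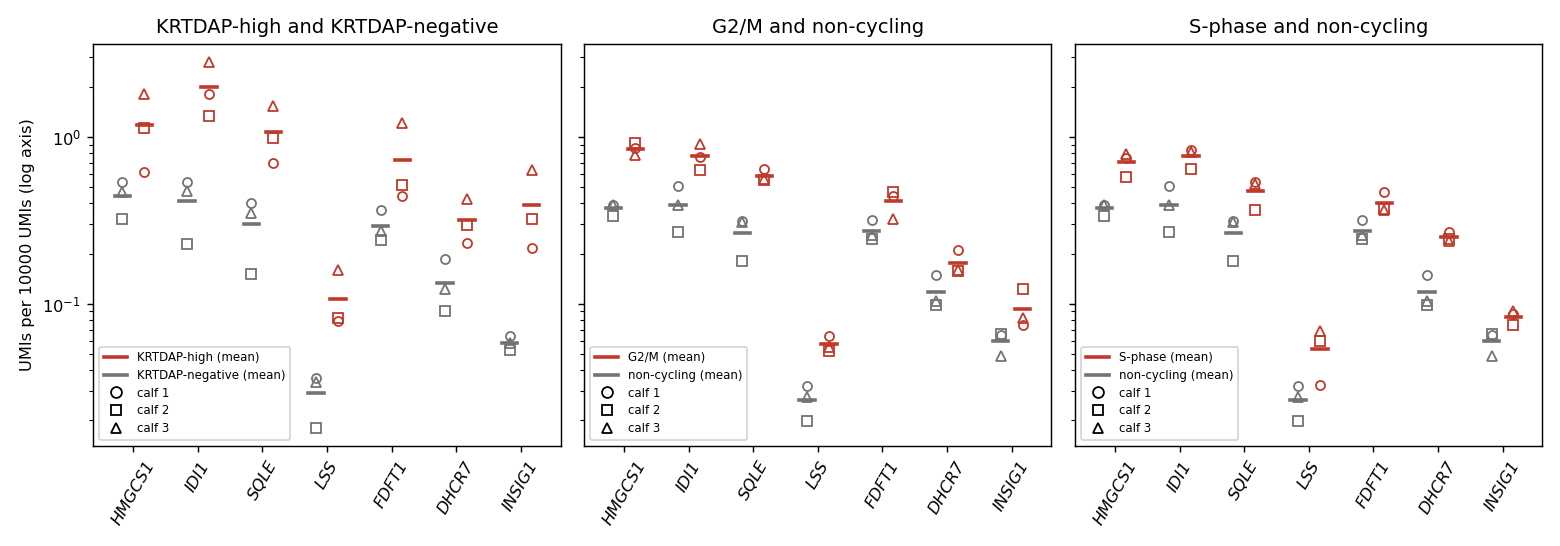
Levels of the 7 genes in gated epithelial cells, as UMIs per 10000 UMIs on a log axis; each open symbol is 1 calf and each bar the mean of 3 calves, red for the KRTDAP-high, G2/M or S-phase cells and grey for the cells they were compared with. In the KRTDAP panel the red symbols of every gene lie above all grey ones, and the summed levels were 4.11 to 8.58 against 1.11 to 2.13.

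The KRTDAP-high cells also differed in other ways. Their median depth was 14537, 11826 and 7700 UMIs against 10322, 6705 and 7956 in KRTDAP-negative cells, and their mitochondrial UMIs were 8.59%, 10.9% and 10.50% against 6.40%, 7.06% and 6.92%. The summed level of 6 early response and heat shock genes (FOS, JUN, EGR1, ATF3, HSPA1A, DNAJB1) was lower in them, at 24.3, 10.4 and 25.8 against 32.7, 52.8 and 70.4 UMIs per 10000. The part of these differences in the result was not tested. The summed level of 7 endothelial markers was at most 0.140 in KRTDAP-high and 0.1004 in KRTDAP-negative cells, that of 11 immune markers at most 0.265 and 0.242, and that of 9 fibroblast markers 0.291 to 1.43 against 2.96 to 4.53. Among the KRTDAP-high cells 23, 8 and 3 were in G2/M and 6, 5 and 0 in S-phase by the gates used below. When both groups were limited to non-cycling cells, a setting chosen after seeing the data, all 7 genes passed with a median log2 difference of 2.33.

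The wider route moved with them. Of 16 other enzymes of cholesterol synthesis, all tested, 11 rose and 0 fell in KRTDAP-high cells, with a median log2 difference of 1.11. CYP51A1, the lanosterol demethylase, had the largest difference of this list, 2.82 (edgeR, adjusted p = 1.20e-39), followed by TM7SF2, a sterol reductase, with 2.56 (edgeR, adjusted p = 5.24e-15). NSDHL, a sterol dehydrogenase, differed by 1.99 and MSMO1, a sterol methyl oxidase, by 1.70. ACAT2, MVK, GGPS1, LBR and HSD17B7 did not pass.

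Of 8 regulators, 4 rose and 1 fell, where 17.6% of all tested genes were called lower. Among those that rose were SREBF1, with a log2 difference of 1.30, SREBF2, the SREBP gene best known for the sterol route, with 0.88, and SCAP with 0.73. MBTPS1, the protease that makes the initial cut in SREBPs, fell by 0.64 on the log2 scale. Of 10 tested genes of uptake, transport, storage and export, 3 rose and 0 fell: APOE by 1.67, SOAT1, which esterifies cholesterol, by 1.24, and NPC1, which moves it out of lysosomes, by 1.15. Of 4 tested fatty acid synthesis genes, SCD, FASN and ELOVL6 rose. Of 5 genes of ketone body metabolism 3 rose, among them BDH1, a dehydrogenase of ketone bodies, by 2.43.

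Cycling epithelial cells also had higher levels. A cell was placed in G2/M when it had 3 or more thinned UMIs over 12 mitotic genes, in S-phase when it had 3 or more over 14 replication genes and fewer than 3 mitotic ones, and among non-cycling cells with 0 and at most 1. G2/M cells numbered 627, 195 and 347, S-phase cells 641, 113 and 624, and non-cycling cells 2561, 7693 and 5777. The summed level of the 7 genes was 3.05, 2.91 and 2.87 UMIs per 10000 in G2/M and 2.99, 2.34 and 2.90 in S-phase, against 1.78, 1.21 and 1.53 in non-cycling cells. All 7 genes were higher in G2/M and in S-phase without overlap between the calves' levels, as were 24.4% and 18.4% of all tested genes. For LSS in S-phase of calf 1 this rests on a small gap, 0.0328 against 0.0320. The gap of FDFT1 in G2/M is also small, 0.324 in calf 3 against 0.318 in non-cycling cells of calf 1. LSS and INSIG1 did not pass the test in S-phase. The means of the summed level were 2.94 ± 0.0943 in G2/M, 2.74 ± 0.353 in S-phase and 1.51 ± 0.283 in non-cycling cells (SD, n = 3 calves).

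In G2/M 6 of the 7 genes rose, where 22.3% of 11007 tested genes were called higher. HMGCS1 was at 0.859, 0.923 and 0.776 in G2/M and at 0.391, 0.337 and 0.393 in non-cycling cells, a log2 difference of 0.97 ± 0.11 (edgeR, adjusted p = 2.44e-05). SQLE differed by 0.94, LSS by 0.93, IDI1 by 0.79, DHCR7 by 0.39 and FDFT1 by 0.36 on the log2 scale. INSIG1 was higher in 3 of 3 calves but did not pass, with a log2 difference of 0.36 (edgeR, adjusted p = 0.148). The calls of LSS, FDFT1 and DHCR7 were the fragile ones: 3 of the genes passed without calf 2 and 4 without calf 3. With no block for the calf 3 passed in G2/M and 3 in S-phase.

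In S-phase 5 of the 7 genes rose, where 19.8% of the tested genes were called higher. DHCR7 was at 0.271, 0.245 and 0.239 in S-phase and at 0.150, 0.0986 and 0.104 in non-cycling cells, a log2 difference of 0.98 ± 0.12 (edgeR, adjusted p = 7.93e-05). IDI1 differed by 0.88, HMGCS1 by 0.83, SQLE by 0.74 and FDFT1 by 0.46. LSS, with 0.78, and INSIG1, with 0.50, were higher in 3 of 3 calves and missed the threshold (edgeR, adjusted p = 0.0510 and 0.0581). When KRTDAP-high and intermediate cells were left out of all groups, a setting chosen after seeing the data, all 7 genes passed in G2/M and in S-phase.

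Cycling cells were deeper than non-cycling cells, with medians of 13910, 11086 and 12998 UMIs in G2/M and 13591, 11774 and 12154 in S-phase against 9583, 6689 and 7693. Mitochondrial UMIs were 9.09%, 10.7% and 11.7% in G2/M, 6.77%, 9.84% and 8.37% in S-phase and 5.68%, 7.13% and 6.26% in non-cycling cells. Their part in the result was not tested. The tests were scaled by TMM factors, which hold most genes steady; scaling by library size alone shifted the median log2 difference of all genes by 0.21 in G2/M and 0.11 in S-phase, and by -0.14 for KRTDAP-high cells.

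Among the 16 other enzymes, 11 rose and 1 fell in G2/M, and 10 rose and 1 fell in S-phase, where 22.2% and 18.7% of all tested genes were called lower. LBR, a sterol reductase that is also a receptor of the nuclear lamina, had the largest difference in G2/M, 2.09 (edgeR, adjusted p = 2.80e-08), while HSD17B7 fell by 0.46. In S-phase NSDHL differed by 1.23 and MVD, the decarboxylase of the mevalonate steps, by 1.19, while GGPS1, which turns isoprenoids away from sterols, fell by 0.39. TM7SF2 did not pass in either cycling group. TMEM97 rose by 0.91 in G2/M and 1.81 in S-phase. In both comparisons NPC2 fell, by 0.31 and 0.36. SREBF2 rose by 0.52 and 0.42, and it was the only regulator past the threshold in G2/M; SCAP also rose in S-phase, by 0.62. The 3 comparisons reuse most of the same low cells, so they are not independent of each other.

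**Figure D2:**
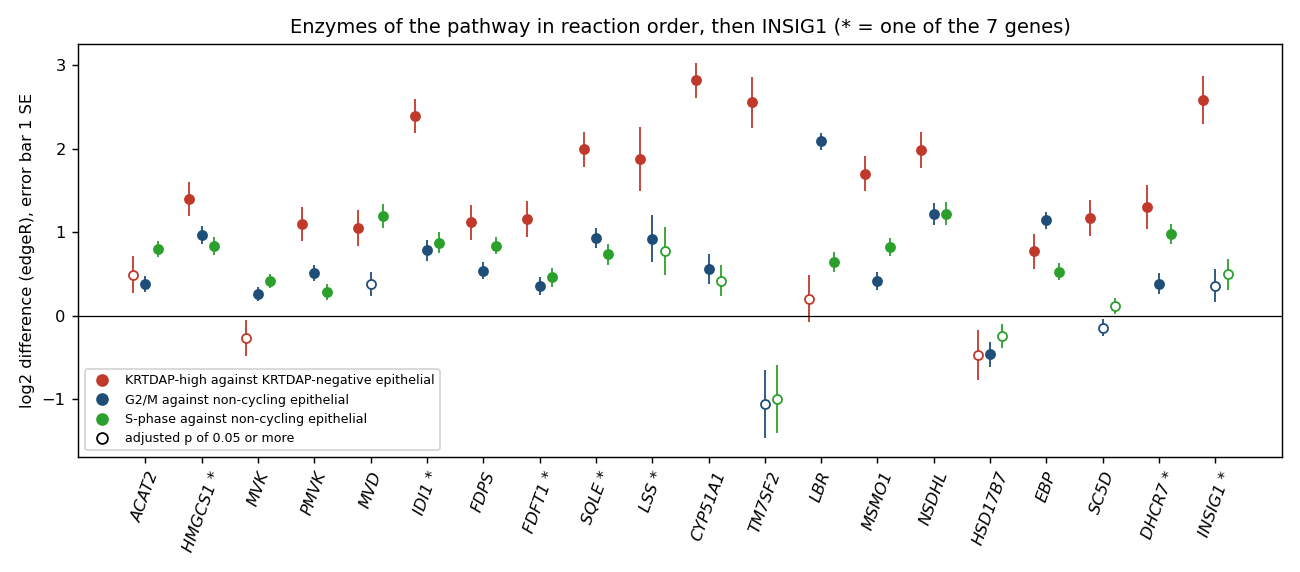
Log2 difference of enzymes of the route, in reaction order, and of INSIG1, for KRTDAP-high against KRTDAP-negative cells (red) and for G2/M (blue) and S-phase (green) against non-cycling cells; bars are 1 SE, filled points passed the test and open points did not. INSIG1 is at 2.59 in KRTDAP-high cells and at 0.36 and 0.50 in the cycling groups, and LBR at 2.09 in G2/M.

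Clustering the epithelial cells gave 15 states, of which 13 had at least 20 cells in every calf. These clusters are described without a test. State 11, led by KRTDAP, SPINK5 and A2ML1, with all 5 listed spinous markers above 2 times the mean of the other states, was a spinous-like state of 185, 329 and 95 cells. Its summed level was 4.45, 4.79 and 6.36 UMIs per 10000 in calves 1, 2 and 3, the highest of the 13 states in each calf. A UMI of at least 1 gene was found in 54.4% (95% Clopper-Pearson interval 46.9 to 61.9), 50.5% (44.7 to 56.4) and 51.7% (40.8 to 62.6) of its thinned cells. In calf 3 only 13 of the 87 thinned cells of this state were KRTDAP-high and 68 were KRTDAP-negative, so most cells of the state in that calf were on the low side of the gate.

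Next came state 8, a mitotic-like state led by CENPF and TOP2A, with 3.03, 2.96 and 2.75, and state 3, led by the replication genes UHRF1 and MCM5, with 3.06, 2.16 and 2.90; these neighbours overlapped. State 4, led by S100A7 and IGFBP3, was uneven between the calves, with 2.00, 1.2001 and 2.96, and in calf 3 it ranked 2 of 13, although only 1.198% of its cells were in G2/M, 3.32% in S-phase and 1.63% KRTDAP-high. At the lower end were state 5, led by IL1R2, with 0.928, 0.674 and 1.06, and state 0 with 1.09, 0.668 and 1.10. These ends also overlapped with each other. From the highest to the lowest state the summed level differed 5.96-fold ± 1.15 (SD, n = 3 calves). Without the Harmony merging of calves only 3 of 14 clusters were present in all calves, and the range over those 3 was 3.78-fold ± 1.76. State 9, led by mitochondrial genes and with a median of 2719 UMIs, was in the middle with 2.23, 0.898 and 1.49.

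The genes did not all follow the same order. IDI1, LSS, FDFT1 and INSIG1 were highest in state 11 in all 3 calves. In calf 1, HMGCS1 was highest in the mitotic-like state at 0.842, followed by state 3 at 0.732 and state 11 at 0.656, while in calf 3 state 11 stood at 1.59 and the mitotic-like state ranked 5 of 13. DHCR7 in calf 1 was highest in state 3 at 0.292, ahead of state 11 at 0.258, and in calves 2 and 3 state 11 led. SQLE in calf 1 was highest in state 9 at 0.692, with state 11 at 0.667. Calf 1 thus held all 3 of the exceptions.

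**Figure D3:**
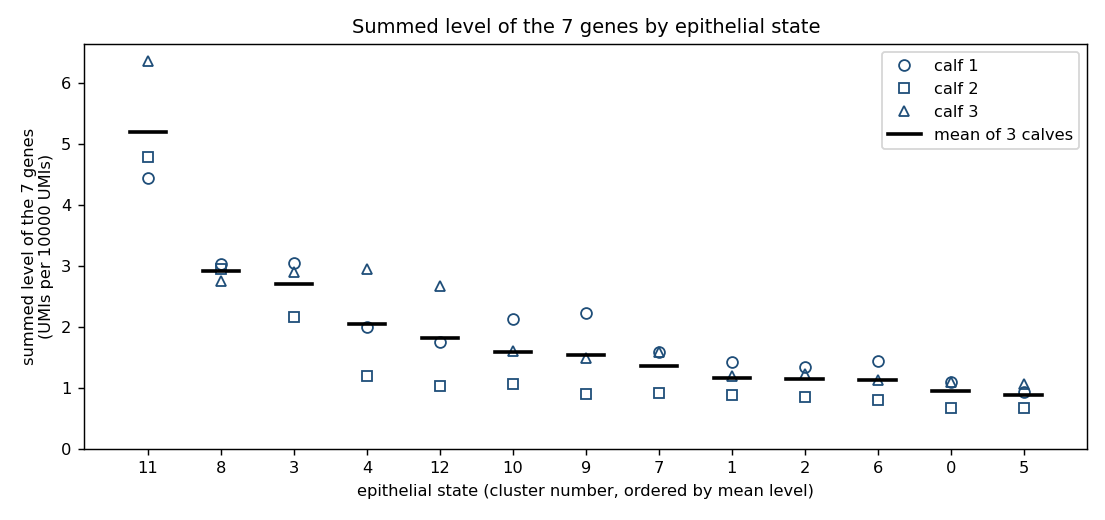
Summed level of the 7 genes, as UMIs per 10000 UMIs, in the 13 epithelial states present in all calves, ordered by the mean; each symbol is 1 calf and each bar the mean. State 11 lies at 4.45 to 6.36, above every other state, and states 8 and 3 follow.

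Between cell classes, the immune cells had the highest summed level. Among the genes followed here, INSIG1 was the only gene whose immune and epithelial levels did not overlap. The share of all tested genes without such overlap was not computed between classes, so whether this is unusual was not tested. In calf 2 HMGCS1, IDI1 and SQLE were also higher in immune cells, at 1.60, 0.838 and 0.567 against 0.370, 0.295 and 0.199. In calf 3 they were higher too, at 1.09, 0.508 and 0.449 against 0.474, 0.485 and 0.357. In calf 1, with 17 immune cells, these genes were lower in immune cells, LSS and DHCR7 had 0 UMIs there, and FDFT1 was higher. INSIG1 made up 2.97 of the immune summed level of 4.61 in that calf. The summed level was 4.61, 4.98 and 3.57 UMIs per 10000 in immune cells of calves 1, 2 and 3, 2.36, 1.52 and 2.48 in endothelial cells, 2.12, 0.935 and 0.969 in fibroblasts with myofibroblasts, and 2.26, 1.31 and 1.81 in epithelial cells. The last 3 classes overlapped. The INSIG1 level was 2.97, 1.36 and 1.03 in immune cells against 0.0712, 0.0674 and 0.0598 in epithelial cells, so the epithelium was lower by 4.01 ± 0.33 on the log2 scale (edgeR, adjusted p = 1.59e-08). Endothelial INSIG1 lay in between, at 0.111, 0.103 and 0.191, and fibroblast levels ranged from 0.03996 to 0.374, overlapping with the endothelial and the epithelial ones.

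Immune cells with an INSIG1 UMI made up 29.2% ± 18.5 of thinned immune cells, against 1.17% ± 0.236 of thinned epithelial cells. The immune mean gives equal weight to 8, 65 and 630 thinned cells of calves 1, 2 and 3. Before thinning the shares were 30.4% and 5.01%. The immune class holds 2 clusters. The cluster with BOLA-DRA, CD74 and FCER1A had INSIG1 levels of 4.00, 1.74 and 1.15 in calves 1, 2 and 3, and the cluster with CD3E and CTSW 0, 0.421 and 0.598, where the count of 0 allows a level of up to 1.91. The former was higher in 3 of 3 calves, on 7, 45 and 462 cells against 10, 30 and 264. The immune class of calf 1 had 17 cells and 18 INSIG1 UMIs.

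Of the 6 genes tested between classes (LSS had too few counts), 2 were lower in epithelial than in immune cells, INSIG1 and HMGCS1, where 20.4% of 10246 tested genes were called lower. HMGCS1 was at 0.494, 1.60 and 1.09 in immune and at 0.544, 0.370 and 0.474 in epithelial cells, and was lower in the epithelium by 0.99 on the log2 scale (edgeR, adjusted p = 0.00415). In calf 1, with 3 HMGCS1 UMIs in its immune cells, the direction was the opposite, and without calf 2 the difference did not pass (edgeR, adjusted p = 0.186). IDI1, SQLE, FDFT1 and DHCR7 did not pass, with log2 differences of -0.05, -0.23, -0.09 and 0.60. LSS, untested, was at 0, 0.0246 and 0.0391 in immune cells, where the count of 0 allows a level of up to 0.494.

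Against endothelial cells 1 of 6 genes was lower in the epithelium, INSIG1 by 0.87 on the log2 scale (edgeR, adjusted p = 0.0392), where 24.6% of genes were called lower. Endothelial HMGCS1 was higher in each calf, at 0.860, 0.665 and 0.854, and its log2 difference of -0.41 did not pass (edgeR, adjusted p = 0.167). Nor did IDI1, SQLE, FDFT1 and DHCR7, with 0.54, 0.39, 0.37 and 0.35. LSS, untested, was lower in the epithelium in 3 of 3 calves, at 0.0390, 0.0222 and 0.0349 against 0.0555, 0.0328 and 0.0492. The endothelial LSS levels rest on few UMIs, and the levels of the classes overlapped. The INSIG1 call did not hold without calf 1 or without calf 3 (edgeR, adjusted p = 0.0698 and 0.635), with no block for the calf (0.176) or in DESeq2 (0.154).

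Against fibroblasts with myofibroblasts 5 of 6 genes were higher in the epithelium, where 17.6% of genes were called higher. DHCR7 differed by 2.44 on the log2 scale, IDI1 by 1.44, SQLE by 1.201, FDFT1 by 1.07 and HMGCS1 by 0.78 (edgeR, adjusted p = 0.00921, 0.00899, 0.0136, 0.00446 and 0.0491), and INSIG1 by -0.12. DHCR7 had 0 UMIs in the fibroblast class of calf 2, which allows a level of up to 0.0384. LSS, untested, was at 0.125, 0.0384 and 0.0499 in this class, above the epithelium in 3 of 3 calves but on few UMIs. The class joins 2 clusters that differed. The summed level was 1.54, 0.573 and 0.813 in the fibroblast cluster of calves 1, 2 and 3 and 3.19, 1.35 and 1.13 in the myofibroblast cluster, on 16, 224 and 231 against 6, 119 and 190 cells. Myofibroblast HMGCS1, at 0.355, 0.552 and 0.463, overlapped with the epithelial levels, while fibroblast HMGCS1, at 0.385, 0.119 and 0.218, was lower than the epithelium in each calf. IDI1 averaged 0.527 ± 0.466 in myofibroblasts and 0.129 ± 0.0549 in fibroblasts. The myofibroblast mean gives equal weight to the 6 cells of calf 1, so no direction is drawn for IDI1. FDFT1 averaged 0.0721 ± 0.0818 in myofibroblasts and 0.267 ± 0.106 in fibroblasts (SD, n = 3 calves). The myofibroblasts of calf 1, 6 cells with 28180 UMIs, had 0 FDFT1 UMIs, which allows a level of up to 1.06. No direction is therefore drawn for FDFT1. The clusters were not tested apart. In calf 1, whose class has 22 cells, the DHCR7 level was higher in fibroblasts, 0.249 against 0.187. Without calf 3 none of the 5 passed the test, and without calf 2 only IDI1 and SQLE did. HMGCS1 was also lost with no block for the calf (edgeR, adjusted p = 0.0785) and in DESeq2 (adjusted p = 0.0965).

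The classes differed in depth, with medians per calf of 6686 to 10294 UMIs in epithelial, 3595 to 4278 in endothelial, 1928 to 2526 in fibroblast and 1625 to 5119 in immune cells. Scaling by library size alone shifted the median log2 difference of all genes by -0.37 against endothelial, -0.36 against fibroblast and -0.41 against immune cells, and the log2 differences above are relative to the TMM scaling. FDFT1 and DHCR7 against endothelial cells changed sign under that scaling, at values near 0.

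Outside the 7 genes, of 11 tested genes of uptake, transport, storage and export, 6 were lower in the epithelium than in endothelial cells, 4 than in fibroblasts and 6 than in immune cells, among them the sterol-responsive receptor NR1H3, with -4.07, -3.82 and -2.77, and NPC2. Of 15 tested other enzymes, 3 were higher and 3 lower against endothelial, 9 higher and 0 lower against fibroblasts, and 3 higher and 2 lower against immune cells. Of all tested genes, 23.4% were higher against endothelial and 29.6% against immune cells, and 20.5% were lower against fibroblasts, so the counts of higher enzymes against endothelial and immune cells were not above the background. PMVK, a kinase of the mevalonate steps, was higher in the epithelium in all 3, by 1.69, 3.06 and 3.54, and LBR was lower than in endothelial and immune cells, by 1.44 and 2.15.

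**Figure D4:**
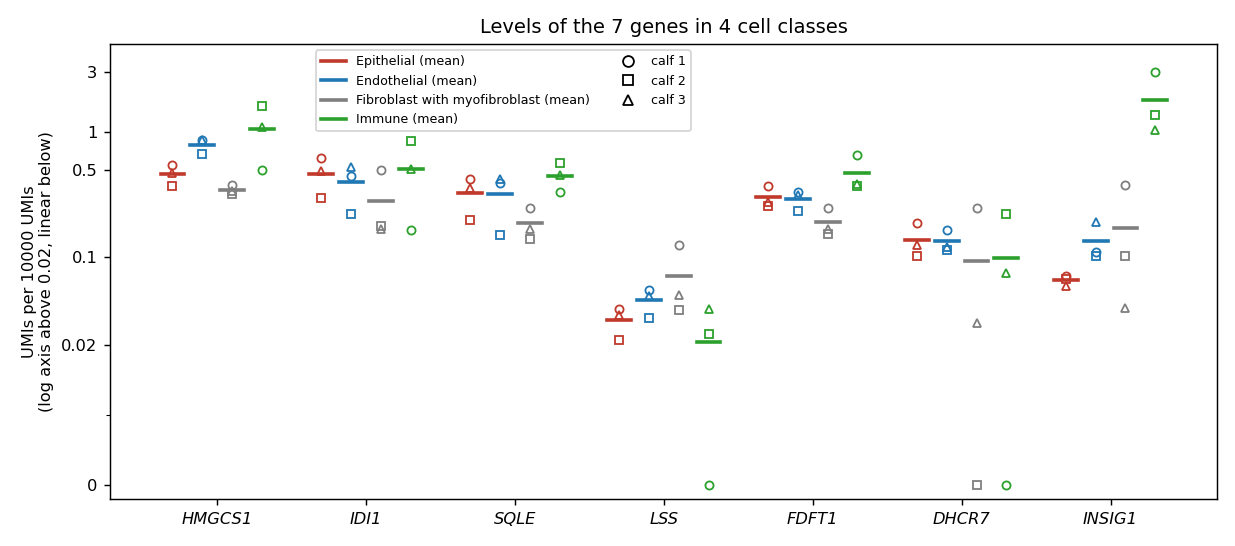
Levels of the 7 genes in 4 cell classes, as UMIs per 10000 UMIs on an axis that is logarithmic above 0.02 and linear below it; each symbol is 1 calf and each bar the mean of 3 calves. INSIG1 lies at 1.03 to 2.97 in immune cells and at 0.0598 to 0.0712 in epithelial cells, above the other classes in every calf.

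Transcripts of the 7 genes met in the same epithelial cells more often than independent detection would give. For each of the 21 pairs, thinned cells with both genes were counted and divided by the number expected from the share of each gene in that calf. The median ratio over the pairs was 1.57, 2.10 and 1.73 in calves 1, 2 and 3. Summed over all pairs there were 423, 323 and 449 double-positive counts, where 278, 140 and 292 were expected. Cells of the same calf differ in state, and when the expectation was computed inside each of the states the median ratio was 1.35, 1.69 and 1.37. With cells thinned to 1000 UMIs the median ratio over all epithelial cells was 1.68, 2.12 and 1.10, so in calf 3 little excess was left. Pairs of other genes were not scored, so whether such an excess is particular to these 7 genes was not tested.

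IDI1 and SQLE were found together in 155 cells, 2.26 ± 1.07 times the expectation (SD, n = 3 calves), and 1.53 times within states. HMGCS1 and IDI1 met in 198 cells, at 2.11 ± 0.672 and 1.58 times. The ratio of IDI1 with INSIG1 was 2.71 ± 1.13 and that of SQLE with LSS 3.54 ± 2.21, on 40 and 18 cells. FDFT1 and DHCR7 met in 28 cells, at 1.02 ± 0.180. The ratios of FDFT1 with SQLE, HMGCS1, LSS, INSIG1 and IDI1 were 1.33, 1.36, 1.41, 1.45 and 1.62, and that of DHCR7 with IDI1 was 1.37. DHCR7 and INSIG1 met in 5 cells, at 0.876 ± 0.667, too few to give a direction.

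**Figure D5:**
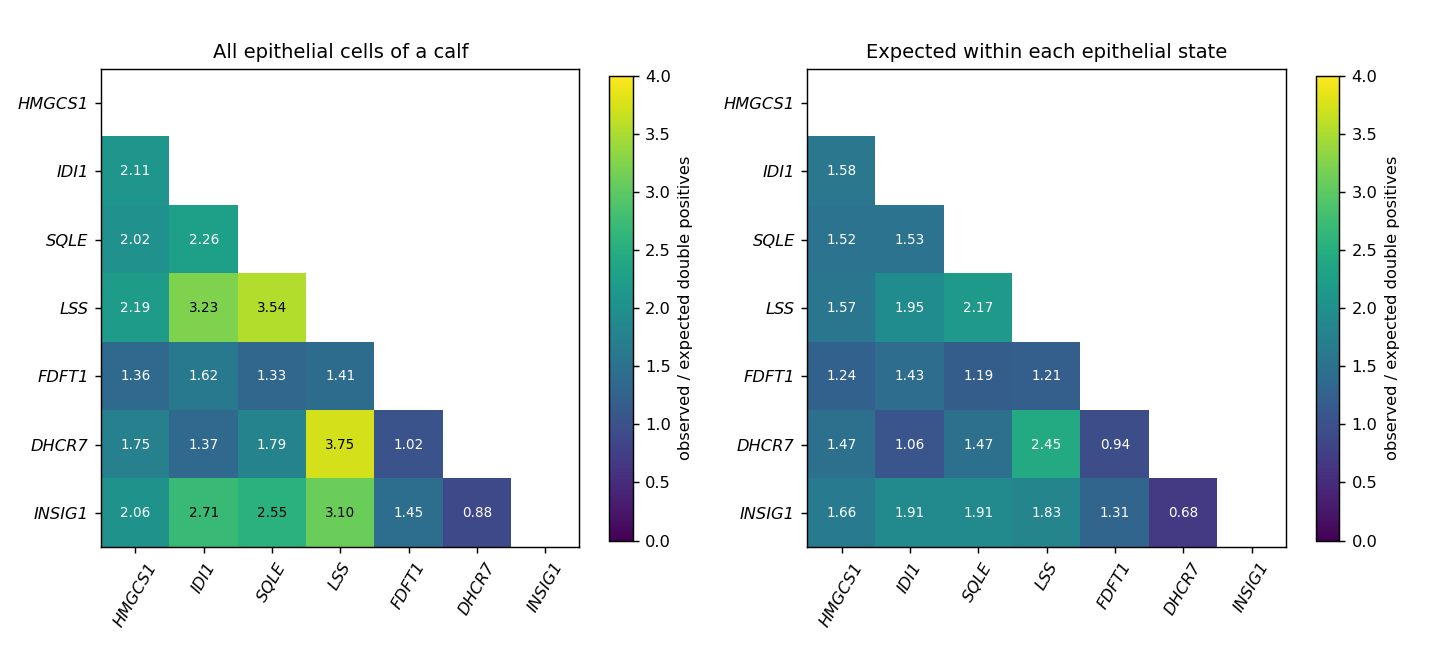
Observed over expected number of thinned epithelial cells with a UMI of both genes, as the mean of 3 calves, for each of the 21 pairs; the left panel takes the expectation over all epithelial cells of a calf and the right panel within each state. HMGCS1 with IDI1 is at 2.11 on the left and 1.58 on the right, and FDFT1 with DHCR7 at 1.02 and 0.941.

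Cells with UMIs of many of the genes were rare. No UMI was found in 68.7%, 82.7% and 74.0% of thinned epithelial cells of calves 1, 2 and 3, and at least 4 of the 7 genes in 4, 10 and 7 cells, where 0.906, 0.129 and 0.566 were expected. This expectation pools the states of a calf, and it was not computed within states. Within single states the excess was uneven. Double-positive counts summed over pairs were above the expectation in 10 of 12, 11 of 12 and 8 of 13 states of calves 1, 2 and 3. In calf 3 states 0, 1, 2 and 7 were below it, at 0.830, 0.606, 0.787 and 0.735 times. These rest on 20, 13, 20 and 19 counts, where 24.1, 21.5, 25.4 and 25.8 were expected, and were not tested. State 12 of calf 3 was also below it, on 1 count. Inside the spinous-like state double-positive counts summed over pairs were 48, 102 and 37, at 1.199, 1.58 and 1.57 times the expectation. In endothelial cells of the 3 calves the ratios were 2.94, 2.75 and 1.46, on 18, 33 and 73 counts. In immune cells they were 0.533, 1.64 and 1.58, on 1, 20 and 126 counts, and in fibroblasts with myofibroblasts 5.33, 3.18 and 0.606, on 1, 5 and 2 counts, too few to give a direction.

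The genes most like the sum of the 7 were sought by the Pearson correlation over thinned epithelial cells, with the lowest of the 3 calves as the score. Correlations were weak, the cells of a calf share a library, and no p is given. Over 5611 other genes the median score was -0.00792 and the 99th percentile 0.0555. The 10 highest were FABP5, a fatty acid binding protein, with 0.173, S100A12 with 0.160, S100A8 with 0.156, AHCYL2 with 0.128, SFN with 0.118, TXN with 0.112, GJA1 with 0.110, CYP51A1 with 0.107, KRT17 with 0.103 and FGFBP1 with 0.1004. S100A8 and GJA1 are among the listed spinous markers, and CYP51A1 is the only gene of the wider sterol list. For the 7 genes, each against the sum of the others, the scores ran from 0.0255 to 0.0995. With the mean of each state removed, CYP51A1 had the highest score of all, 0.0798, and MSMO1 had 0.0564, while GJA1 fell to -0.00336. The summed level correlated with the mitochondrial share of a cell at 0.0928 to 0.131 and with the log of its depth at 0.0544 to 0.103, values of the same size.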

How the data were processed

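The authors deposited raw UMI counts per gene and barcode for each calf, without normalization. These counts were made with Cell Ranger 3.1.0 per the labels and aligned, per the methods, to ARS-UCD1.2. They held 7529, 12043 and 11656 barcodes, of which 1797, 1119 and 476 had fewer than 500 genes. Barcodes with 500 to 4000 genes, at most 50000 UMIs and at most 40% UMIs of named mitochondrial genes were kept, and doublets were removed by a score against simulated doublets (191, 908 and 879 barcodes). Counts were log-normalized, reduced on 2000 variable genes without sterol genes, merged with a Harmony procedure written for the purpose and clustered (leidenalg 0.10.2; resolution 0.1 for classes, 0.8 for epithelial states). Raw counts were summed per calf and group (10 or more cells) and tested with edgeR 4.0.16; DESeq2 1.42.0 was an alternative. The groups of a calf come from the same animal and library, so calf was a block in the main fit. The spread of a gene between calves (6, 4 and 2 residual degrees of freedom for the class, cycle and KRTDAP fits) was moderated toward that of genes of like abundance, with prior degrees of freedom of 11.3, 7.57 and infinity; KRTDAP p-values therefore rest on the shared spread alone, and limma-voom (limma 3.58.1) was added. At the gates, 177 and 324 cells lay at and 1 UMI below the G2/M limit, 432 and 961 for S-phase, and 95 and 467 for KRTDAP. On simulated data the edgeR step recovered 53% of 2-fold and 96% of 4-fold changes for the G2/M comparison of 10919 genes, 27% and 77% for KRTDAP (12057 genes), and 49% and 84% against endothelial cells (8814 genes). The simulation used a shared profile, a fixed dispersion and the same fold in every calf. It held no difference between calves, so these rates need not carry over to the real counts. All 7 genes are described in every comparison, LSS without a test between classes. Other genes are described by lists (those past the threshold, or counts) and by likeness. The genes, lists and gates were chosen with earlier results of these data known. Intervals cover counting error only. No genome was used, and gene names are those of the count tables. Some genes of the wider lists enter the counts but are not reported here by name.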

Additional observations from a re-analysis of the deposited data

How the results depend on the processing

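Alternatives were no TMM scaling, DESeq2, no filter on low counts, no calf block, other cell filters, other gates leaving out each calf and, added after seeing the data, limma-voom. The number of genes past the threshold against endothelial cells, 1, became 2 with library-size scaling and with no filter, 0 with DESeq2, with limma-voom and with no replicate block, and 0 to 1 when a calf was left out. Against fibroblasts, 5 became 3 with library-size scaling and 0 to 5 when a calf was left out; against immune cells 2 became 1 to 2. For G2/M, 6 became 3 with no replicate block and with a gate of 5 UMIs, and 3 to 5 when a calf was left out; for S-phase 5 became 3 with no replicate block and 5 to 6 when a calf was left out, and limma-voom called all 7. The KRTDAP count stayed at 7, except 5 without calf 2. The share of epithelial cells with a UMI of any gene, 24.9%, was 13.7% with 1000 UMIs, 40.1% with 4000 and 59.9% without thinning. The co-expression median of 1.80 was 1.47 within states and 1.63 with 1000 UMIs. The 5.96-fold range of states was 3.78-fold without Harmony, over 3 clusters. Signs turned only for differences that had not passed. These were FDFT1 (-0.00644) and DHCR7 (-0.0206) against endothelial cells with library-size scaling, INSIG1 against fibroblasts with no filter (0.0900), with no upper limit of genes (0.0602) and over the calves left out (-0.77 to 0.35), and, against immune cells, IDI1 with limma-voom (0.134), with no replicate block (0.0589) and over the calves left out (-0.55 to 0.41), SQLE (-0.71 to 0.0337) and DHCR7 (-0.25 to 0.97) over the calves left out. The cause of these changes was not tested.

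Over all genes, leaving out calf 3 took the calls against endothelial, fibroblast and immune cells from 4910, 3901 and 5117 to 2802, 1986 and 2204 and those of S-phase from 4237 to 2324. With no replicate block the G2/M, S-phase and KRTDAP calls went from 4898, 4237 and 3808 to 1487, 903 and 1715; DESeq2 gave 2444 and leaving out calf 2 gave 1481 KRTDAP calls. With library-size scaling the share of calls that were higher went from 48.7% to 30.1%, 46.2% to 26.8% and 59.2% to 40.3% in the class comparisons, from 50.1% to 71.3% in G2/M, 51.5% to 66.4% in S-phase and 45.4% to 34.5% for KRTDAP-high cells, which limma-voom took to 57.6%. Of 1625 alternative values of wider-list genes, 1415 kept their call and 210 lost it, without a change of sign.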
